A study of Mus musculus with 48 samples.

Results

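NMDA and AMPA receptors are the ion channels through which glutamate, the main excitatory transmitter of the cortex, acts at synapses. The genes described here are their 10 main subunit genes, Grin1, Grin2a, Grin2b, Grin2c, Grin2d and Grin3a for the NMDA receptor and Gria1, Gria2, Gria3 and Gria4 for the AMPA receptor. They were picked out by symbol, with earlier results of these data known. All 10 were found among the 24444 genes of the expression matrix, 1 row each, and all passed the filter on low values in every comparison. RNA was measured by RNA-seq in the dissected cortex of 48 male mice on the C57BL/6J background, as embryos at day 14.5 (E14.5) and as juveniles and adults of 1, 6 or 12 months. At each age there were 6 wild-type (WT) littermates and 6 mice with 1 mutant copy of Chd8, written Chd8 V986*/+, so that there were 8 groups. Chd8 encodes a chromatin remodeller in which loss-of-function mutations are linked to autism. The mutation puts tandem stop codons in place of the codons for V986 and E987. It was made with CRISPR/Cas9, and the line comes from 1 male founder crossed to C57BL/6J, so that the genotype comparison rests on a single edited allele.

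Values are on the variance-stabilised scale of the deposited matrix (VST), a log2-like scale. A step of 1 stands for about 2-fold where expression is high and for more than that near 2.1433. That is the most frequent value of the matrix, written here as the lower limit, although the lowest value is 1.23. VST values are not scaled to gene length, so levels are compared between samples and never between genes. The study lists 13611052 to 61621924 aligned reads per library (median 30471916). Reads per gene are not part of the matrix, and the depth behind a single value is unknown. Chd8 itself was lower in all 6 Chd8 V986*/+ libraries than in all 6 WT libraries at each age, with differences of -0.63, -0.67, -0.64 and -0.54 at E14.5, 1, 6 and 12 months (limma adjp = 0.026, 3.0e-06, 1.1e-07 and 0.0026). Markers of cortical glutamatergic neurons were present in every group, with none of 8 near the lower limit and a mean of 8 markers between 10.6 and 11.8 in single libraries. At E14.5, genes that mark the midbrain, hindbrain and spinal cord were also detected in some libraries and to unequal levels, and their values are given beside the results they move with. The mice of a group are separate animals, 6 to a group.

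An NMDA receptor is built around the obligatory subunit GluN1, encoded by Grin1, which binds the coagonist glycine or D-serine. GluN1 is joined by GluN2 subunits, encoded by Grin2a to Grin2d, which bind glutamate and set how long the channel stays open and how strongly magnesium blocks it. GluN3A, encoded by Grin3a, is a glycine-binding subunit that lowers calcium entry and is best known from juvenile brain. The textbook developmental switch is a gain of GluN2A relative to GluN2B as forebrain synapses mature, while GluN2D is best known from early brain and from interneurons, and GluN2C from cerebellum and from glia. AMPA receptors are tetramers of GluA1 to GluA4, encoded by Gria1 to Gria4. GluA2, once its transcript has been edited, makes the channel nearly impermeable to calcium.

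In mm9, the build of the alignment, and by the GENCODE annotation of that build, the 6 NMDA subunit genes lie on the minus strand: Grin1 at chr2:25146701-25174707, Grin2a at chr16:9577803-9995014, Grin2b at chr6:135679844-136123529, Grin2c at chr11:115110483-115128557, Grin2d at chr7:53087253-53126298 and Grin3a at chr4:49674483-49858616. Of the AMPA subunit genes, Gria1 lies at chr11:56824889-57143746 on the plus strand, Gria3 at chrX:38754031-39031778 on the plus strand, and Gria2 and Gria4 on the minus strand at chr3:80488858-80606713 and chr9:4417899-4796234. Another gene, Ppp3r2, lies within the span of Grin3a on the same strand. Ppp3r2 itself lay between 2.12 and 4.70 over the 48 libraries.

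Promoter sequences of 5 of the 10 genes (Grin1, Grin2c, Grin2d, Gria2 and Gria4) were matched in RefSeq on GRCm38.p6, each running from 250 bases before to 50 bases after the annotated start. Of the NMDA subunit genes among them, Grin2c and Grin1 had large changes with age and Grin2d a small one, and these 3 promoters are shown 5′ to 3′ for that reason. Capitals mark a GC box (GGGCGG) or an E-box (CACGTG) on either strand.
Grin2c (chr11:115267194-115267493, minus strand): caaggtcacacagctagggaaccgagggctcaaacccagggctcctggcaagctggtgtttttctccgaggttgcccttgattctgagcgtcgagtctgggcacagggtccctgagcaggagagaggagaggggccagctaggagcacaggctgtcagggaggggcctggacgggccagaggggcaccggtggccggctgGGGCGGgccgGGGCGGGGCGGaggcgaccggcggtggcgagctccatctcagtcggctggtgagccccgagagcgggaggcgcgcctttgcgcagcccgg
Grin2d (chr7:45866632-45866931, minus strand): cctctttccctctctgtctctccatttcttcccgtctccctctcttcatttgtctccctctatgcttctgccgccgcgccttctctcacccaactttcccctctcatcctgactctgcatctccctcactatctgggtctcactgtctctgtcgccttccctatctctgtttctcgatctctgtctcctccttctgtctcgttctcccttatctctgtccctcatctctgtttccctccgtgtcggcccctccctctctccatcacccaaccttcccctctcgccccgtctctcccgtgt
Grin1 (chr2:25319138-25319437, minus strand): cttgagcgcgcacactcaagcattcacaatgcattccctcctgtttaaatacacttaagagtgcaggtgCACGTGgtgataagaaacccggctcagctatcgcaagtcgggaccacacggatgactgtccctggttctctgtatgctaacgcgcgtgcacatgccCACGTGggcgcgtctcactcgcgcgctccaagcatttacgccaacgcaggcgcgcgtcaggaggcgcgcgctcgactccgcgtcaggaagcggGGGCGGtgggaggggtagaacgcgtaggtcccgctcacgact

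The Grin2c promoter held 3 GC boxes, of which the last pair overlaps by 1 base, with 22 CpG dinucleotides and 70.0% GC. The Grin1 promoter held 1 GC box and 2 E-boxes, with 33 CpG dinucleotides, more than 91.4% of promoters. The Grin2d promoter held neither, with 12 CpG dinucleotides, more than 60.4% of promoters. The promoters of Gria2 (26 CpG) and Gria4 (17 CpG) held neither motif as well. None of the 5 held a TATA box (TATAAA) or a cyclic AMP response element (TGACGTCA). Over all 32851 mouse promoters of the same length, 35.7% held a GC box, 13.6% a TATA box, 7.15% an E-box and 1.79% a cyclic AMP response element, and the median number of CpG dinucleotides was 7. These matches describe the sequence only.

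The change from E14.5 to 1 month asked how the subunit genes move as the cortex matures. In WT cortex 9 of 10 rose (limma, adjp under 0.1), led by Grin2c and Grin2a, and none fell. Over all 17341 genes tested in WT, 43.9% rose and 41.7% fell at that threshold, so a called rise on its own was common. A rise of at least 1 was seen for 8 of 10 subunit genes and for 22.7% of all genes, and the median change was 2.24 for the 10 genes and 0.03 for all genes. E14.5 and 1-month WT libraries did not overlap for 9 of 10 subunit genes, with higher values at 1 month each time, and for 34.9% of all genes in that direction. Fewer cells of a type and less RNA per cell cannot be told apart in these bulk samples.

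**Figure D1:**
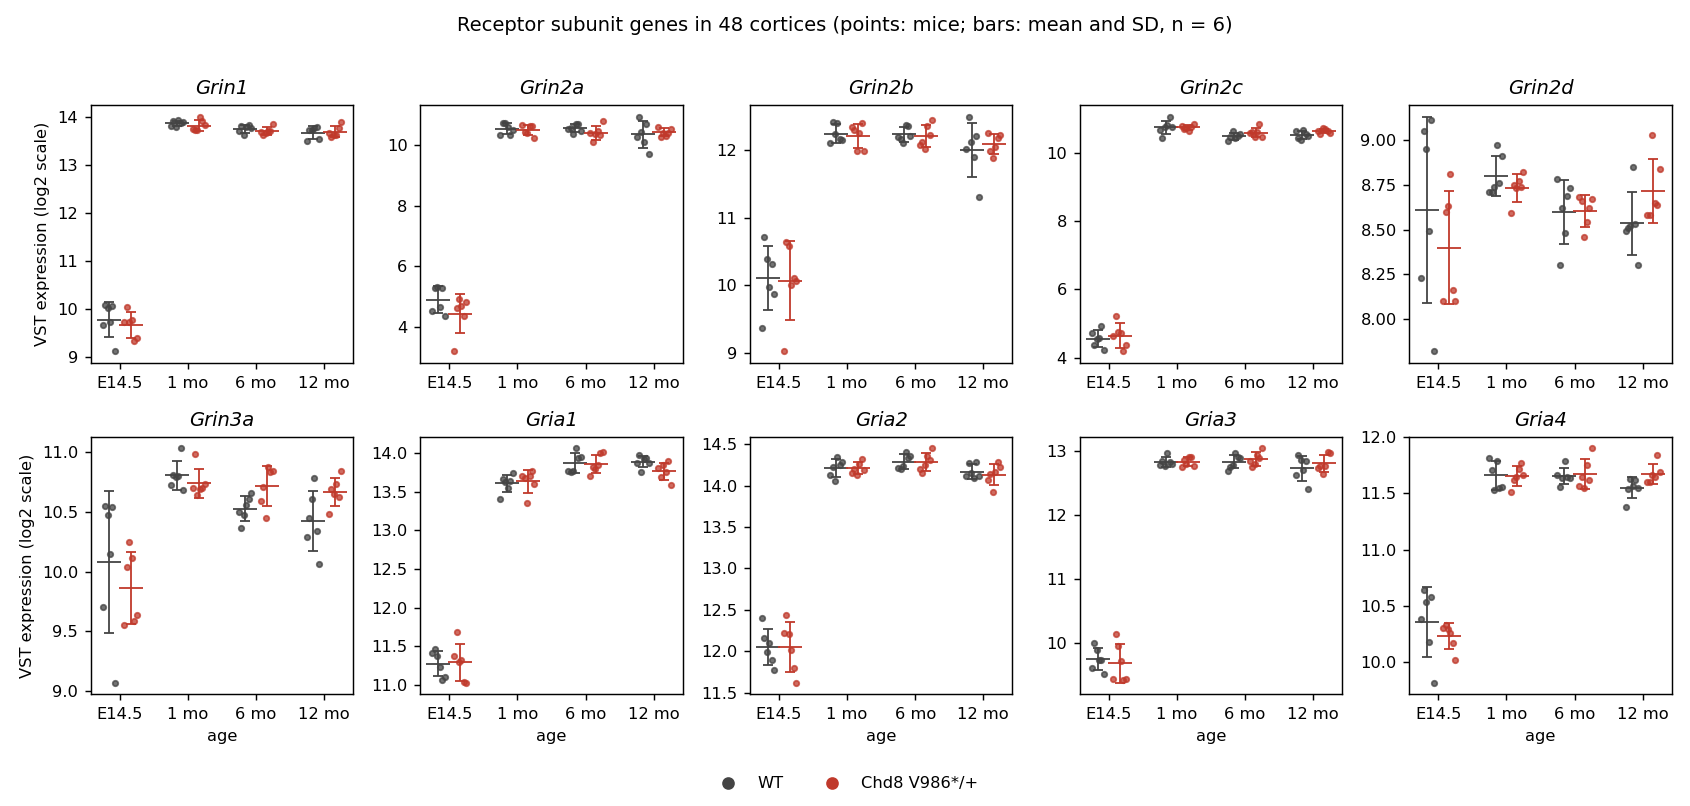
VST level (vertical axis) of the 10 subunit genes at E14.5, 1, 6 and 12 months in WT and Chd8 V986*/+ cortex. Each point is 1 mouse and bars give the mean ± SD (n = 6). Most of the change lies between E14.5 and 1 month, and the genotypes overlap in every panel and age. Group means of Grin2d are nearly level, with a wide spread at E14.5.

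Grin1, the subunit that every NMDA receptor needs, ranged from 9.12 to 10.08 in WT at E14.5 (median 9.87) and from 13.79 to 13.94 at 1 month (median 13.89). The 6 libraries at 1 month all lay far above the 6 at E14.5. The rise was 4.10 (SE 0.11, adjp = 9.0e-23), or 17.1-fold.

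Among the glutamate-binding subunits, Grin2c and Grin2a rose most. Grin2c ranged from 4.22 to 4.92 at E14.5 (median 4.56) and from 10.43 to 11.04 at 1 month (median 10.74), a rise of 6.17 (SE 0.10, adjp = 1.9e-27). Grin2a, the subunit of the mature forebrain receptor, ranged from 4.36 to 5.32 (median 4.96) and then from 10.34 to 10.73 (median 10.56), a rise of 5.64 (SE 0.17, adjp = 2.4e-21). Neither gene overlapped between the ages. Both were low at E14.5, in the range where the VST scale compresses differences, so that 72.1-fold for Grin2c and 49.9-fold for Grin2a understate the change. Grin2b, the GluN2 subunit known from the embryonic forebrain, also rose: it ranged from 9.36 to 10.72 at E14.5 (median 10.15) and from 12.10 to 12.42 at 1 month (median 12.20), a rise of 2.14 (SE 0.17, adjp = 2.7e-12) or 4.41-fold. The rise of Grin2b was smaller than that of Grin2a in these values, and its group means at 6 and 12 months (12.23 and 12.00) stayed above that at E14.5 (10.10).

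Grin2d was the exception. It ranged from 7.82 to 9.11 at E14.5 (median 8.72) and from 8.71 to 8.97 at 1 month (median 8.75). The E14.5 libraries lay on both sides of the 1-month libraries, and the difference of 0.19 (SE 0.15, 95% CI -0.13 to 0.51, adjp = 0.25) did not pass the threshold. WT replicates 2, 3 and 5, with midbrain, hindbrain and spinal cord marker means of 5.09, 5.14 and 6.65, had 9.05, 8.95 and 9.11. Replicates 1, 4 and 6, with marker means of 3.76, 4.42 and 3.28, had 8.23, 8.49 and 7.82, below every 1-month library. The part of these markers in the age difference was not tested. Grin3a, the glycine-binding juvenile subunit, ranged from 9.07 to 10.55 (median 10.31) and from 10.68 to 11.03 (median 10.79). The groups did not overlap, and the rise of 0.72 (SE 0.17, adjp = 0.00037) or 1.65-fold was the smallest of the 9 that passed.

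All 4 AMPA receptor subunit genes rose, Gria3 most and Gria4 least. Gria3 ranged from 9.53 to 10.01 at E14.5 (median 9.74) and from 12.76 to 12.97 at 1 month (median 12.80), a rise of 3.07 (SE 0.08, adjp = 9.3e-23) or 8.41-fold. Gria1, whose product is delivered to synapses in long-term potentiation, ranged from 11.07 to 11.47 (median 11.31) and from 13.41 to 13.74 (median 13.64), a rise of 2.33 (SE 0.07, adjp = 2.9e-21) or 5.02-fold. Gria2, which encodes the subunit that limits calcium entry, rose by 2.16 (SE 0.08, adjp = 1.1e-19) or 4.46-fold, from a range of 11.77 to 12.40 (median 12.05) to one of 14.05 to 14.34 (median 14.24). Gria4, known from early cortex and from fast-spiking interneurons, ranged from 9.82 to 10.64 (median 10.46) and from 11.53 to 11.81 (median 11.64), a rise of 1.30 (SE 0.09, adjp = 7.2e-13) or 2.47-fold. None of the 4 overlapped between E14.5 and 1 month.

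Chd8 V986*/+ cortex went through the same comparison separately. All 10 subunit genes rose (44.5% of 17291 genes rose and 42.1% fell), 8 of them by at least 1 (22.9% of genes), and libraries of the 2 ages did not overlap for 9 of 10 (35.4% of genes, higher at 1 month). The order was close to that in WT, with 6.08 for Grin2c, 6.07 for Grin2a, 4.16 for Grin1, 3.14 for Gria3, 2.34 for Gria1, 2.16 for Gria2, 2.14 for Grin2b, 1.42 for Gria4, 0.87 for Grin3a and 0.34 for Grin2d. Grin2d ranged from 8.10 to 8.81 at E14.5 (median 8.38) and from 8.59 to 8.82 at 1 month (median 8.75), which overlap, and its rise (SE 0.10, adjp = 0.0040) was 1.26-fold. That Grin2d passed the threshold in one genotype and not in the other is not a difference between them. The test of the difference itself found 0 of 10 subunit genes (limma adjp under 0.1, against 0.0% of 17311 genes), and 0 at an unadjusted p under 0.05, against 796 genes or 4.60%.

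Marker genes of cell types moved with age as well. In WT, 6 of 6 astrocyte markers rose between E14.5 and 1 month, and their mean went from 7.66 to 12.42. All 8 oligodendrocyte-lineage markers and 6 of 6 microglia markers rose, 8 of 8 cortical progenitor markers fell, and of the 6 pan-neuronal markers 5 rose and 1 fell, with a median of 2.89. Other cell type lists were mixed. Of 8 cortical glutamatergic markers 4 rose and 4 fell, and of 9 GABA neuron markers 6 rose and 3 fell. Of 6 endothelial and mural cell markers 2 rose and 4 fell. The part of these shifts in the rise of the subunit genes was not tested.

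The subunit switch can be read within each library as the difference between a pair of subunits, which removes what the pair share. Because the members of a pair were chosen together with the list, these differences are described without a test. Grin2a minus Grin2b was -5.20 ± 0.26 in WT at E14.5 and -1.70 ± 0.12 at 1 month (SD, n = 6), a shift of 3.50 (SE 0.12) or 11.3-fold towards Grin2a. In Chd8 V986*/+ cortex it was -5.63 ± 0.30 and then -1.70 ± 0.10, a shift of 3.93 (SE 0.13) or 15.3-fold. From 1 to 12 months the group means stayed between -1.79 and -1.65 in both genotypes. The whole shift towards Grin2a thus lay between E14.5 and 1 month, and no comparable shift followed.

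Grin2c minus Grin2d made the largest shift of the 5 ratios examined. It was -4.05 ± 0.47 in WT at E14.5 and 1.93 ± 0.20 at 1 month, a shift of 5.98 or 63.2-fold, and it was -3.75 ± 0.28 and 2.001 ± 0.11 in Chd8 V986*/+ cortex, a shift of 5.75 or 53.7-fold. Afterwards it lay between 1.88 and 1.98. Grin3a minus Grin1 went the other way, from 0.30 ± 0.24 to -3.07 in WT and from 0.19 ± 0.25 to -3.09 in Chd8 V986*/+ cortex, so that Grin3a lost 10.4-fold and 9.74-fold relative to Grin1 although both genes rose.

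Among AMPA subunits, Gria1 minus Gria4 had rising group means in WT, of 0.92, 1.95, 2.21 and 2.34 at E14.5, 1, 6 and 12 months. Libraries did not overlap between E14.5 and 1 month. They overlapped for the step from 1 to 6 months (0.27, SE 0.10) and for that from 6 to 12 months (0.12, SE 0.06). In Chd8 V986*/+ cortex the means were 1.06, 1.98, 2.18 and 2.09. Gria2 minus the mean of the other 3 AMPA subunit genes moved less, with group means from 1.59 at E14.5 to 1.45 at 12 months in WT and from 1.65 to 1.38 in Chd8 V986*/+ cortex, and with overlapping libraries at neighbouring ages. From E14.5 to 1 month it shifted by -0.08 in WT and -0.14 in Chd8 V986*/+ cortex, and under quantile normalization by -0.23 and -0.32.

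**Figure D2:**
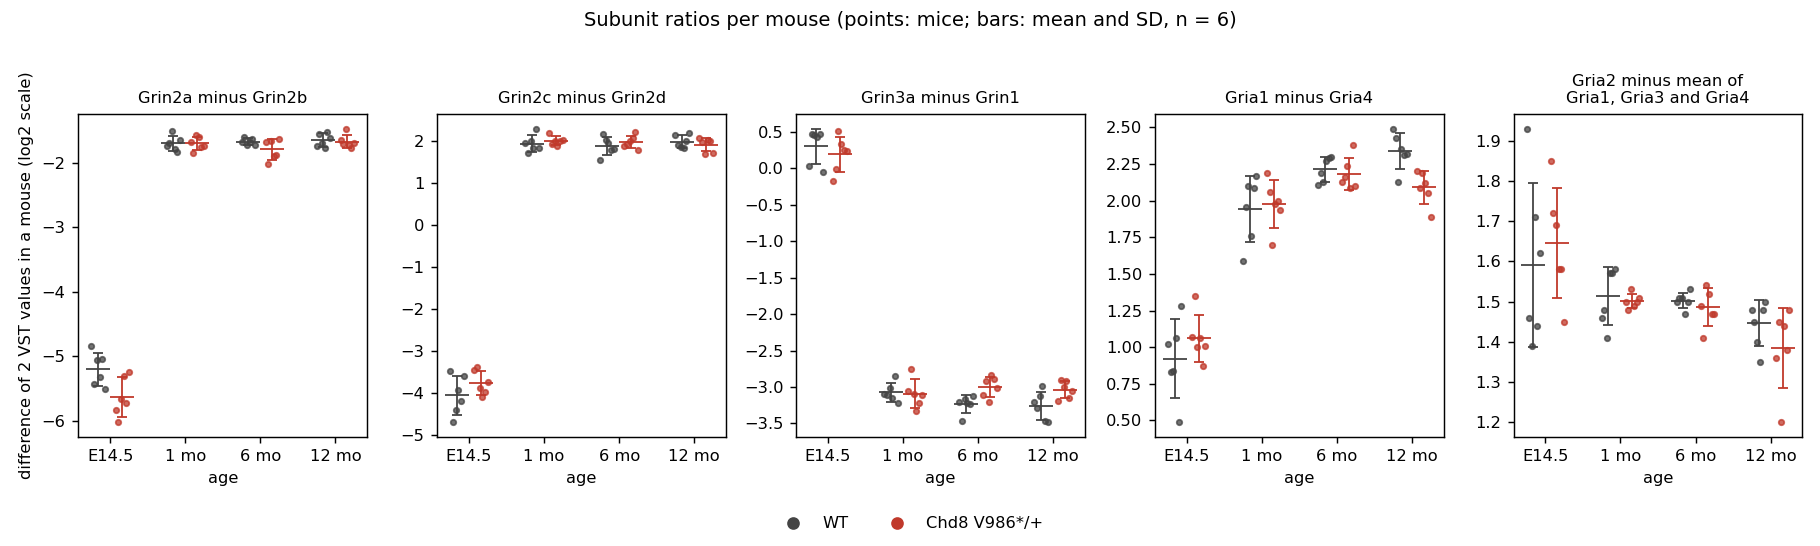
Difference in VST level between subunit genes of the same library (vertical axis) at the 4 ages, for Grin2a minus Grin2b, Grin2c minus Grin2d, Grin3a minus Grin1, Gria1 minus Gria4, and Gria2 minus the mean of Gria1, Gria3 and Gria4. Points are mice and bars the mean ± SD (n = 6). The first pair of ratios climbs and the third drops between E14.5 and 1 month. The group mean of Gria1 minus Gria4 climbs further in WT to 2.34 at 12 months, with overlap between neighbouring ages from 1 month on. The Gria2 ratio stays between group means of 1.38 and 1.65.

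After 1 month the subunit genes moved little. From 1 to 6 months in WT, 2 of 10 passed the threshold: Gria1 rose (6.86% of genes rose) and Grin2c fell (7.91% of genes fell). Gria1 ranged from 13.41 to 13.74 at 1 month (median 13.64) and from 13.75 to 14.06 at 6 months (median 13.86). The groups did not overlap, which held for 8.43% of all genes in either direction, and the rise was 0.27 (SE 0.07, adjp = 0.016). Grin2c ranged from 10.43 to 11.04 (median 10.74) and from 10.33 to 10.64 (median 10.47), which overlap, and the difference of -0.26 (SE 0.10, adjp = 0.093) lost its call in several other fits. Grin3a ranged from 10.68 to 11.03 at 1 month and from 10.36 to 10.66 at 6 months, without overlap, but its difference of -0.28 (SE 0.17, adjp = 0.35) did not pass. The fit pools the spread over the 4 ages, and the SD of Grin3a in WT was 0.59 at E14.5 and 0.11 to 0.25 later.

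In Chd8 V986*/+ cortex only Gria1 passed from 1 to 6 months (11.0% of genes rose and 10.8% fell), by 0.22 (SE 0.09, adjp = 0.081). It ranged from 13.35 to 13.77 (median 13.69) and from 13.70 to 14.01 (median 13.83), which overlap, and none of the 10 genes was without overlap (9.32% of genes). This call was also lost in several other fits. Grin2c had a difference of -0.16 (adjp = 0.34). From 6 to 12 months 0 of 10 passed in either genotype (limma, against 0.0115% of genes in WT and 1.88% in Chd8 V986*/+ cortex), and 0 of 10 had an unadjusted p under 0.05 (7.40% and 13.3% of genes). The wider spread at E14.5 enters these fits as well, so that their p-values can be too high. The largest differences in that interval were -0.23 for Grin2b in WT (adjp = 0.74) and -0.16 for Gria2 in Chd8 V986*/+ cortex (adjp = 0.51). In the WT group at 12 months, replicate 6 was the lowest library for Grin2a (9.69), Grin2b (11.30), Grin2d (8.30), Grin3a (10.06) and Gria3 (12.40). The same library had the lowest mean of cortical glutamatergic markers in its group (11.09, against 11.31 to 11.75 in the other libraries) and the highest mean of astrocyte markers (12.57, against 12.06 to 12.43), and the part of this in the values was not tested.

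The genes that work with these receptors were followed in 6 lists of 65 genes in all. From E14.5 to 1 month in WT, where 43.9% of all genes rose and 41.7% fell, 11 of 12 AMPA receptor auxiliary subunits rose and 1 fell, with a median of 1.55. Cacng3, a transmembrane AMPA receptor regulatory protein (TARP), went from 7.29 ± 0.44 to 11.35 ± 0.10 (SD, n = 6), a rise of 4.05 (SE 0.13, adjp = 9.3e-21). Cnih3, a cornichon that slows AMPA channel closing, rose by 2.46 and Shisa9 by 2.07. Cacng4, another TARP and one known from embryonic brain, was the member that fell, from 10.60 ± 0.22 to 8.42 ± 0.18, a difference of -2.18 (SE 0.11, adjp = 2.3e-16).

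Of the other ionotropic glutamate receptor subunits, kainate and delta receptor genes with Grin3b, 4 of 8 rose, 3 fell and 1 did not pass, with a median of 0.43. The delta receptor gene Grid1 rose by 1.75 and the kainate subunits Grik4 and Grik5 by 1.45 and 0.88, while Grin3b (-1.03), Grik3 (-0.58) and Grik2 (-0.11) fell. Grik5 was named after its value was seen. Among 20 scaffold and trafficking genes 17 rose and 3 fell (median 2.15): the postsynaptic density genes Dlgap1, Dlgap2 and Dlgap3 rose by 4.15, 3.72 and 3.33, and Homer3 (-1.50), Grip1 (-1.05) and Pick1 (-0.10, adjp = 0.057) fell. Grip1 and Pick1 encode proteins that bind the tail of GluA2.

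Camk2a, the kinase subunit that phosphorylates GluA1 and binds GluN2B, had the largest rise of these lists, from 10.21 ± 0.11 to 16.78 ± 0.12, a difference of 6.57 (SE 0.08, adjp = 3.3e-29). Of the 7 genes for calcium/calmodulin kinase II and RNA editing enzymes 6 rose, none fell and 1 did not pass (median 2.11). Camk2b rose by 2.88 and Adarb1, which edits the GluA2 transcript, by 3.22. All 7 metabotropic glutamate receptor genes tested rose (median 2.33), with 2.90 for Grm3, 2.43 for Grm7 and 2.35 for Grm2. Of 11 genes for the supply and uptake of glutamate and the coagonists, 10 rose and 1 fell (median 2.37). The vesicular transporter Slc17a7 rose by 5.97, while Slc17a6, the other vesicular glutamate transporter of the list, fell by 1.31. The astrocytic transporter Slc1a2 rose by 4.75 and Glul, the glutamine synthetase of astrocytes, by 3.44.

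**Figure D3:**
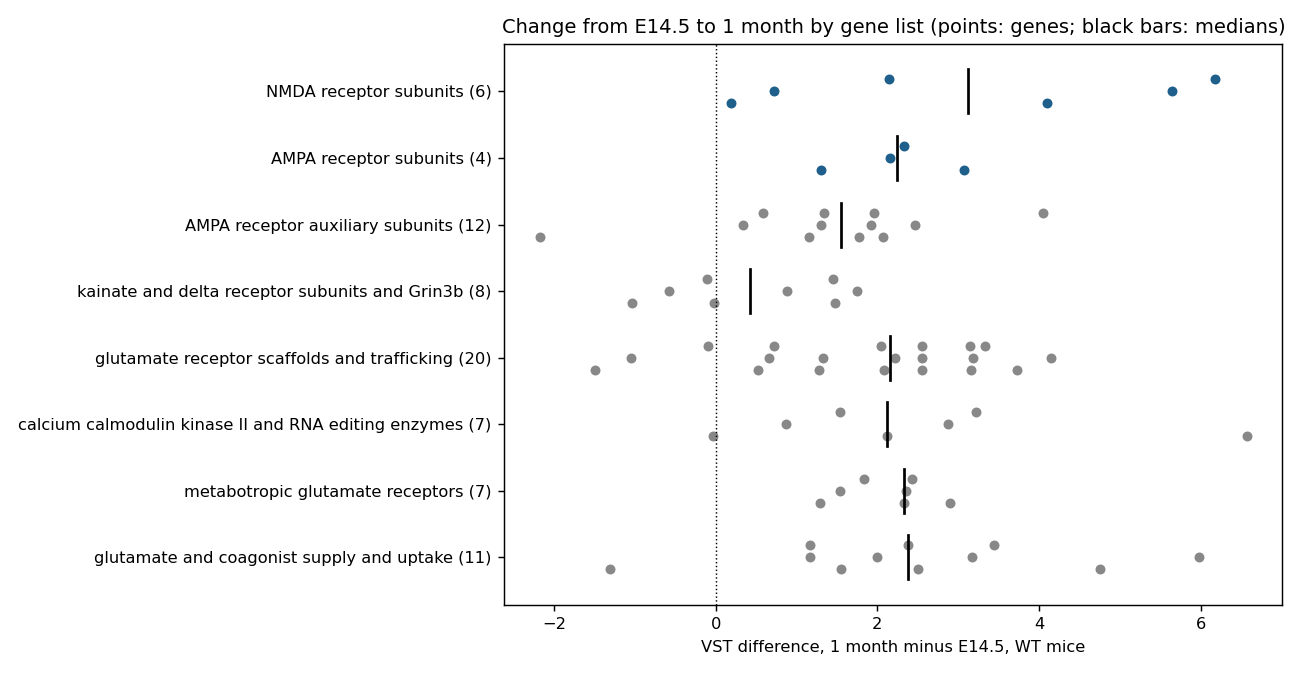
Difference in VST level between E14.5 and 1 month in WT cortex (axis in VST units) for each gene of the 6 related lists and for the 10 subunit genes. Each point is 1 gene and each black bar the median of its list. Medians of the 6 related lists lie between 1.55 and 2.37 apart from the kainate and delta receptor list at 0.43. NMDA and AMPA subunit genes are separate rows, with changes from 0.19 to 6.17 and from 1.30 to 3.07. The median of all 10 subunit genes, 2.24, is not drawn.

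In Chd8 V986*/+ cortex the same interval gave 11 higher and 1 lower for the auxiliary subunits, 5 and 3 for kainate and delta receptors with Grin3b, 17 and 2 for scaffolds, 6 and 0 for kinase and editing genes, 7 and 0 for metabotropic receptors, and 9 and 1 for supply and uptake. Over all genes 44.5% were higher and 42.1% lower. Between 1 and 6 months, 1 of the 65 genes rose and 6 fell in WT (6.86% and 7.91% of all genes), and 4 rose and 14 fell in Chd8 V986*/+ cortex (11.0% and 10.8% of all genes). Between 6 and 12 months none passed in WT (limma, with 0.0115% of all genes), and 2 scaffold genes fell in Chd8 V986*/+ cortex (1.88% of all genes passed in either direction).

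The genotype comparison asked whether loss of 1 Chd8 copy shifts glutamate receptor subunits at any age. At none of the 4 ages did a subunit gene pass the threshold, and Chd8 V986*/+ and WT libraries overlapped for all 10 genes each time. Few of all genes passed or were without overlap at any age, so that these counts say little about the subunit genes. At E14.5 0 of 10 passed (limma, against 0.00593% of 16877 genes), 0 had an unadjusted p under 0.05 (4.56% of genes) and 0 were without overlap (0.261% of genes). The largest difference was for Grin2a, which ranged from 4.36 to 5.32 in WT (median 4.96) and from 3.19 to 4.92 in Chd8 V986*/+ cortex (median 4.65). Chd8 V986*/+ libraries lay towards the low end but overlapped WT, with a difference of -0.47 (SE 0.28, 95% CI -1.07 to 0.13, adjp = 0.98). Without Chd8 V986*/+ replicate 1, the library at 3.19, it was -0.22.

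Other differences at E14.5 were -0.22 for Grin3a, -0.21 for Grin2d, -0.12 for Gria4 and -0.11 for Grin1, and the remaining 5 genes lay between -0.06 and 0.09. Without WT replicate 6 these 4 were -0.42, -0.37, -0.23 and -0.24 (adjp 0.28 to 0.46). In WT these 4 genes moved with the level of genes that mark the midbrain, hindbrain and spinal cord, and with that of pan-neuronal genes. The mean of 35 such markers was 3.76, 5.09, 5.14, 4.42, 6.65 and 3.28 in WT replicates 1 to 6, and 3.39, 3.32, 4.56, 3.91, 3.85 and 3.66 in Chd8 V986*/+ replicates 1 to 6. In WT 5 of the 35 were near the lower limit and in Chd8 V986*/+ cortex 16, and the median difference of the list was -1.09, although 0 of the 28 tested passed. WT replicates 2, 3 and 5, which were highest in these markers, were also the highest WT libraries for Grin2d (9.05, 8.95 and 9.11), Grin3a (10.55, 10.47 and 10.54), Grin1 (10.08, 10.02 and 10.06), Gria4 (10.64, 10.54 and 10.58) and Grin2a (5.28, 5.32 and 5.28). WT replicate 6, lowest in the markers, was the lowest for Grin2d (7.82), Grin3a (9.07), Grin1 (9.12), Gria4 (9.82) and Grin2a (4.36). The mean of 6 pan-neuronal markers had the same order at its ends, with 11.65, 11.65 and 11.71 in WT replicates 2, 3 and 5 and 11.10 in replicate 6. WT replicate 6 was also the highest of its group in cortical progenitor markers (12.69, against 11.93 to 12.28). The same held for cortical glutamatergic markers (11.44, against 10.62 to 11.23). Chd8 V986*/+ libraries did not follow the midbrain, hindbrain and spinal cord markers in this way for Grin1 and Gria4. Replicate 2, lowest in them at 3.32, was the highest of its group for Grin1 (10.04) and Gria4 (10.33). Replicate 3, highest in them at 4.56, had 9.74 and 10.30. For Grin3a (10.25) and Grin2a (4.92) replicate 3 was the highest of its group. For Grin2d it had 8.63, below replicate 4 at 8.81, which came next in the markers at 3.91. In Chd8 V986*/+ replicate 2 the pan-neuronal mean was the highest of its group, at 11.53.

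Fitted with that mean of 35 markers as a covariate, the E14.5 difference was 0.15 for Grin2d, 0.18 for Grin3a, 0.09 for Grin1, 0.04 for Gria4 and -0.12 for Grin2a (adjp = 1.00 each), so that 4 of these 5 turned from negative to positive. With the pan-neuronal mean as the covariate instead, the same 4 were positive as well, at 0.14, 0.15, 0.17 and 0.06, and Grin2a was -0.23 (adjp = 1.00 each; unadjusted p = 0.0069 for Grin1). The parts of the marker genes in these values cannot be told apart. At 1 month and later, the same 35 markers had means of 2.89 to 3.40, with 20 to 25 of 35 near the lower limit.

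**Figure D4:**
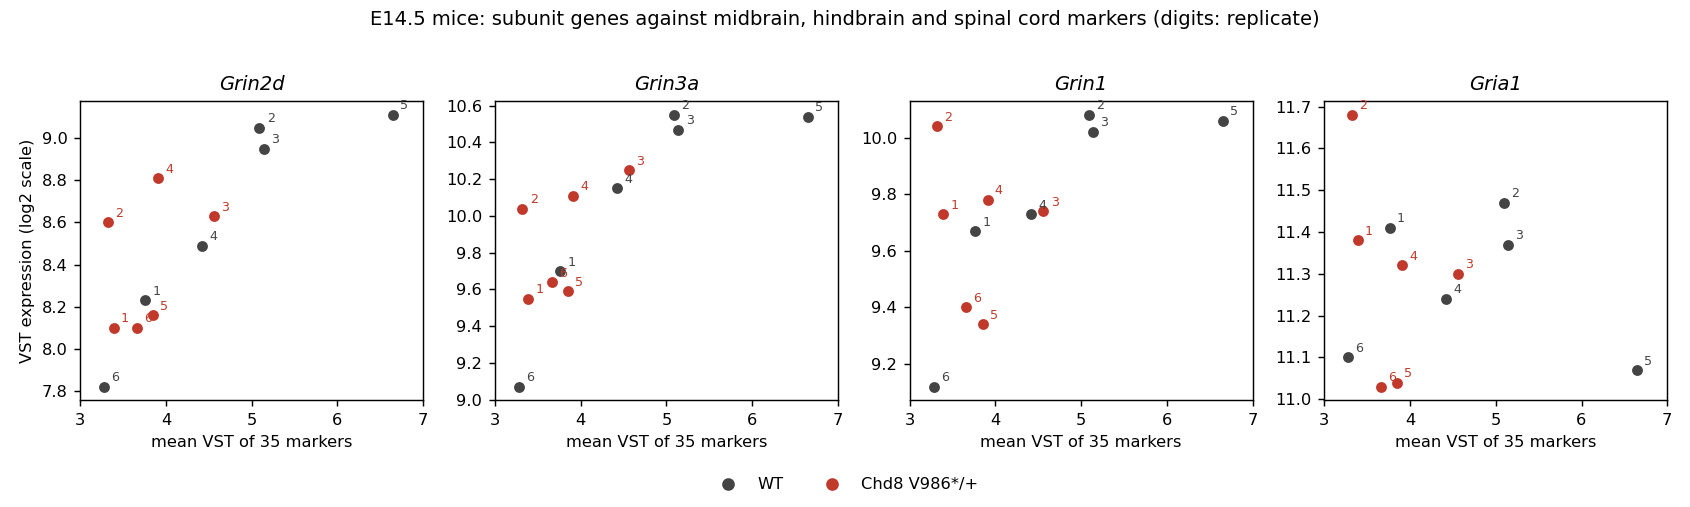
VST level of Grin2d, Grin3a, Grin1 and Gria1 (vertical axis) against the mean VST of 35 markers of midbrain, hindbrain and spinal cord (horizontal axis) in the E14.5 libraries of both genotypes, each point labelled with its replicate number. WT replicates 2, 3 and 5 lie to the right and are high for Grin2d and Grin3a, and WT replicate 6 lies at the left and low, while Gria1 has its lowest WT value, 11.07, in replicate 5 with the highest marker mean.

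At 1 month all 10 differences lay within 0.07 of 0, with 95% confidence limits between -0.21 and 0.17 and adjp between 0.80 and 1.00. None passed (limma, 0.139% of 17221 genes did), none had an unadjusted p under 0.05 (8.80% of genes) and none was without overlap (0.825% of genes).

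At 6 months 0 of 10 passed (limma, against 0.0927% of 17256 genes), and 1 had an unadjusted p under 0.05 (7.59% of genes). This was Grin3a, which ranged from 10.36 to 10.66 in WT (median 10.53) and from 10.45 to 10.87 in Chd8 V986*/+ cortex (median 10.77). Most Chd8 V986*/+ libraries lay above the WT median but the groups overlapped, as they did for each of the 10 genes (0.527% of all genes were without overlap), and the difference was 0.19 (SE 0.07, 95% CI 0.04 to 0.33, adjp = 0.53). Grin2a differed by -0.14 and Grin2c by 0.10 (adjp = 0.77 each).

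At 12 months 0 of 10 passed (limma, against 0.0463% of 17288 genes), 2 had an unadjusted p under 0.05 (11.6% of genes) and none was without overlap (0.868% of genes). Grin3a ranged from 10.06 to 10.78 in WT (median 10.40) and from 10.48 to 10.84 in Chd8 V986*/+ cortex (median 10.67). The Chd8 V986*/+ libraries fell within the upper part of the WT range or just above it, with a difference of 0.24 (SE 0.10, 95% CI 0.04 to 0.45, adjp = 0.35). Gria4 ranged from 11.38 to 11.63 (median 11.56) and from 11.60 to 11.84 (median 11.65), so that the groups overlapped only at their edges, and differed by 0.12 (SE 0.06, adjp = 0.42).

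Gria1 ranged from 13.76 to 13.97 in WT at 12 months (median 13.90) and from 13.59 to 13.89 in Chd8 V986*/+ cortex (median 13.78). It was the only AMPA subunit gene with a difference below -0.1, at -0.13 (SE 0.06, adjp = 0.44). Grin2d differed by 0.18 (SE 0.09) and Grin2c by 0.11 (SE 0.06), with adjp = 0.46 for both. The difference Gria1 minus Gria4 within a library ranged from 2.13 to 2.49 in WT and from 1.89 to 2.20 in Chd8 V986*/+ cortex, and the means differed by -0.25 (SE 0.07), with overlap. Grin3a minus Grin1 was higher in Chd8 V986*/+ cortex by 0.24 (SE 0.08) at 6 months and by 0.22 (SE 0.09) at 12 months, also with overlap. At E14.5 Grin2a minus Grin2b was lower by 0.43 (SE 0.16) in Chd8 V986*/+ libraries, which again overlapped WT. These ratio differences are given as description, with no test. Every ratio was compared at every age, and those given here are the largest relative to their SE. Of the rest, the largest in size was 0.30 (SE 0.22), for Grin2c minus Grin2d at E14.5. Grin3a, Gria1 and Gria4 also enter the single-gene differences above, so their ratios are not separate results. Among marker lists, the median genotype difference at 12 months was -0.33 for striatum, -0.25 for hippocampus and 0.24 for cortical progenitors. In the other lists it lay between -0.10 and 0.13. None of the marker genes passed, and their part in the subunit values was not tested.

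**Figure D5:**
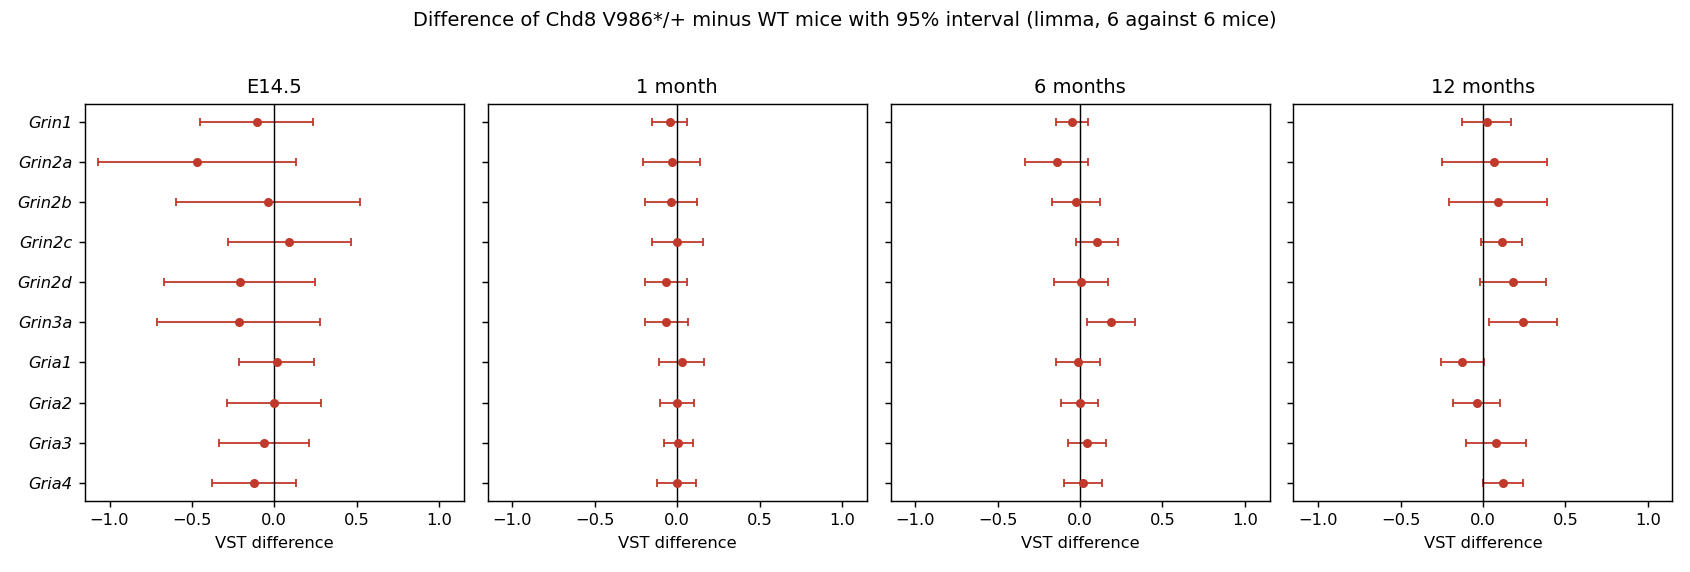
Difference in VST level between Chd8 V986*/+ and WT cortex (horizontal axis) with its 95% confidence interval for the 10 subunit genes at the 4 ages (n = 6 per genotype). At E14.5 the interval of Grin2a runs from -1.07 to 0.13, and at 1 month all 10 intervals lie between -0.21 and 0.17. Only those of Grin3a at 6 and 12 months and of Gria4 at 12 months leave out 0 before adjustment.

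The replicates numbered 1 to 3 and 4 to 6 had been set to a common mean over all groups by the study's correction, and the genotype difference was also taken within each set. Of the 10 genes, 6, 5, 5 and 5 had the same sign in both sets at E14.5, 1, 6 and 12 months. For Grin3a the differences in the sets were 0.14 and 0.24 at 6 months and 0.15 and 0.34 at 12 months. For Gria4 at 12 months they were 0.10 and 0.14, for Gria1 -0.09 and -0.17, for Grin2d 0.22 and 0.15 and for Grin2c 0.17 and 0.06. For Grin2a at E14.5 they were -0.80 and -0.14.

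With the mean of 6 pan-neuronal markers as a covariate, the difference of Grin3a at 12 months was 0.28 (adjp = 0.093), past the threshold. That mean lay between 13.98 and 14.26 in WT and between 14.03 and 14.19 in Chd8 V986*/+ libraries. The same covariate raised the number of genes called over all genes from 8 to 665, so that the call is not particular to Grin3a. Over the remaining settings tried the difference of Grin3a at 12 months kept its sign, and leaving out 1 library at a time gave 0.17 to 0.31 (adjp 0.15 to 0.56).

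Whether the genotype difference changed between ages was tested for E14.5 against 1 month (above), E14.5 against 12 months, 1 against 12 months and 6 against 12 months, and no subunit gene passed. From E14.5 to 12 months 0 of 10 passed (limma, 0.0635% of 17311 genes did), and 4 had an unadjusted p under 0.05 (11.5% of genes): Grin2a (0.54, SE 0.26, adjp = 0.43), Grin3a (0.46, SE 0.21, adjp = 0.39), Grin2d (0.39, SE 0.19, adjp = 0.43) and Gria4 (0.25, SE 0.12, adjp = 0.41). All 4 were lower in Chd8 V986*/+ cortex at E14.5 by the fitted mean, and at 12 months higher. Without WT E14.5 replicate 6, the library lowest in the midbrain, hindbrain and spinal cord markers, 3 of them passed: Grin3a at 0.66 (adjp = 0.027), Gria4 at 0.35 (adjp = 0.036) and Grin2d at 0.55 (adjp = 0.074). These calls therefore rest on which E14.5 libraries are kept. The fit also pools the spread over the 8 groups. The median SD of the 10 genes at E14.5 was 0.34 in WT and 0.30 in Chd8 V986*/+ cortex, and 0.10 to 0.15 later. For a contrast with E14.5 the SE can thus be too small and the p-values too low. From 1 to 12 months 0 of 10 passed (limma, 0.00578% of genes), and from 6 to 12 months 0 of 10 (0.0578% of genes). In neither did a subunit gene have an unadjusted p under 0.05, against 11.1% and 8.68% of genes. For these contrasts, which leave out E14.5, the pooled SE can be too large and the p-values too high. A count of 0 here therefore says little.

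None of the 65 genes in the related lists passed in the genotype comparison at any age (limma), against 0.00593%, 0.139%, 0.0927% and 0.0463% of all genes at E14.5, 1, 6 and 12 months. At shares this low a count of 0 says little about the lists. Their median differences lay between -0.19 and 0.09 over the 4 ages.

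The genes whose VST profile was most like that of a subunit gene over the 48 libraries were named from 13782 well-expressed genes by Pearson's r, given as a description. Most of r here is the step between E14.5 and later ages, which a large share of genes have in common. The closest were Tmem151a for Grin1 (0.999), Ank2 for Grin2b (0.993), Ntsr2 for Grin2c (0.998), Dgkg for Gria1 (0.997), Mal2 for Gria2 (0.996), Cacnb4 for Gria3 (0.998) and Dpp10 for Gria4 (0.992). The 3 closest to Grin2c were Ntsr2, a neurotensin receptor found in astrocytes, then Hpcal4 (0.998), and then Clu, a secreted chaperone abundant in astrocytes. Grin3a was less tied to the common step (Shroom2, 0.930) and Grin2d least (Hs3st5, 0.777).

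Once the mean of each of the 8 groups was taken out, the profiles show which genes vary together between mice of a group. The spread was not scaled between groups, so that libraries of a group with a wide spread weigh more in r. The median SD of the 10 subunit genes at E14.5 was 0.34 in WT and 0.30 in Chd8 V986*/+ cortex, and 0.10 to 0.15 later. The closest were Prkar1b for Grin1 (0.932), Kidins220 for Grin2b (0.958), Psd for Grin2c (0.717), Shroom2 for Grin2d (0.847), Dpp6 for Grin3a (0.914), Dgkg for Gria1 (0.830), Mal2 for Gria2 (0.849), Opcml for Gria3 (0.938) and Cdh18 for Gria4 (0.898). Dgkg and Mal2 were thus the closest genes to Gria1 and Gria2 by both measures. Among the subunit genes themselves the highest values were 0.871 for Grin2a with Grin2b, 0.845 for Grin2d with Grin3a, 0.787 for Grin1 with Gria4, 0.766 for Grin2b with Gria3 and 0.751 for Grin1 with Grin3a. The highest among AMPA subunit genes was 0.690, for Gria1 with Gria2. Grin2a with Grin2c gave -0.02. The points are libraries of 1 study, and those at E14.5 differ in the marker genes given above. Later libraries differ in markers as well, with striatum marker means of 8.56 to 10.33 in WT at 1 month. The part of marker genes in these values was not tested.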

How the data were processed

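PolyA RNA from the cortex of 1 hemisphere of each mouse was sequenced as paired-end libraries. The labels name a TruSeq v2 kit and the study's methods a KAPA stranded kit, and which one applies was not settled here. Per the study's methods and the submitters' processing notes, reads were aligned to mm9 with STAR 2.5.2b, quantified with Salmon 0.11.3 and normalised with DESeq2 1.22.2. The authors deposited 1 matrix of log2-like variance-stabilised values (VST) for 24444 genes and 48 mice, with a batch correction. In it the means of replicates 1 to 3 and 4 to 6 over all groups are equal for every gene, so that p-values do not count the degrees of freedom this used. Of all values 15.7% sit at 2.1433, the most frequent value, which is written here as the lower limit. Since counts are not used here, no count model was run.

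Genes with a mean of at least 0.5 above the lower limit entered limma 3.58.1 with a mean-variance trend (R 4.3.3). The genotype was tested at each age on 12 mice, the age steps within each genotype on 24, and the difference of genotype effects on 48. Adjusted p (adjp) is by Benjamini-Hochberg over all genes tested, and the threshold of 0.1 is that of the study. Age changes were also counted at a difference of at least 1. The 10 subunit genes, the related lists and the marker lists were chosen with earlier results of these data known. In the related lists, up to 3 genes with the largest rise and up to 3 with the largest fall among those that passed from E14.5 to 1 month in WT were named. The closest genes by Pearson's r were drawn from genes with a mean of at least 3 above the lower limit. On simulated data with 200 genes changed by 1, the genotype test recovered 91.5%, 95.0%, 93.5% and 92.5% at the 4 ages, with 24, 14, 23 and 31 false calls. The largest genotype difference of a subunit gene was 0.47 in size. The simulated noise was also independent between genes. These shares therefore do not tell how often differences of the size seen here would be found. Tables and plots were made with Python 3.11.15, pandas 2.3.3, scipy 1.17.1 and matplotlib 3.10.9. The alternatives were other filters, variance models, scalings, covariates, a replicate block, 1 fit of all 48 mice, and leaving out each mouse. Results for a few genes are not reported here.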

Additional observations from a re-analysis of the deposited data

Results flagged for a closer look

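Of the 80 groups of 6 mice (10 subunit genes by 8 groups), 4 held a library whose gap to its nearest neighbour exceeded Dixon's critical value of 0.625 of the range, about as many as the 1 in 20 that chance gives. Grin2a in Chd8 V986*/+ E14.5 replicate 1 was low, at 3.19. Grin3a in WT 1-month replicate 5 was high, at 11.03, and so was Grin3a in Chd8 V986*/+ 1-month replicate 2, at 10.98. Gria4 in WT 12-month replicate 1 was low, at 11.38.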

How the results depend on the processing

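No result for the subunit genes that passed the threshold changed its direction under any alternative. The count from 1 to 6 months in WT was 1 instead of 2 with no filter, with limma without a trend, with adjp under 0.05 and with read depth as a covariate. Grin2c was the gene lost (adjp = 0.15 with no filter, 0.11 without a trend and 0.22 with read depth). In Chd8 V986*/+ cortex the count for this step was 0 instead of 1 with no filter, without a trend, with adjp under 0.05 and with the replicate block, Gria1 being the gene lost (adjp = 0.15, 0.11, 0.081 and 0.10). The genotype count at 12 months was 1 instead of 0 with pan-neuronal markers as a covariate. Leaving out 1 mouse at a time gave counts of 1 to 2 and 0 to 1 for the 1 to 6 month step in WT and Chd8 V986*/+ cortex, 9 to 10 for E14.5 to 1 month in WT, and 0 to 3 for the difference of genotype effects between E14.5 and 12 months. In WT, Grin2d passed from E14.5 to 1 month without E14.5 replicate 2 (0.28, adjp = 0.096) or replicate 5 (0.29, adjp = 0.075), and without replicate 6 its difference was 0.03 (adjp = 0.82). Under quantile normalization the E14.5 to 1 month shift was 3.70 for Grin2a minus Grin2b and 5.42 for Grin2c minus Grin2d in Chd8 V986*/+ cortex, and -0.23 in WT and -0.32 in Chd8 V986*/+ cortex for Gria2 minus the other AMPA subunit genes. It moved the median change of all genes in WT from 0.03 to -0.09 and the split from 7607 higher and 7224 lower to 6926 and 7921. The cause of these changes was not tested.

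The replicate numbers did not meet the rule for pairing: correlations of same-numbered mice averaged 0.23 at E14.5 (4 of 6 pairs above 0.1, and 4 of 6 WT libraries closest to their own number) and 0.019, 0.046 and -0.034 at 1, 6 and 12 months. The block changed no call of a subunit gene other than that of Gria1. Over all genes, genotype calls at E14.5, 1, 6 and 12 months numbered 1, 24, 16 and 8, against 93, 37, 16 and 520 in 1 fit of all 48 mice, 274, 45, 38 and 1006 in that fit with the replicate block, 2, 13, 30 and 2 with the block at each age, 2, 24, 6 and 11 with no filter, 0, 18, 4 and 9 without a trend, 1, 15, 5 and 3 at adjp under 0.05, 1, 27, 2 and 3 with read depth, 0, 30, 6 and 665 with pan-neuronal markers, and 0, 33, 11 and 2 with midbrain, hindbrain and spinal cord markers. Genotype differences, none of them past the threshold, changed sign under some setting in 9, 7, 5 and 4 of the 10 genes at the 4 ages, with Grin3a (-0.42 to 0.18) and Grin2d (-0.37 to 0.15) at E14.5 among them. The number of mice and the compression of the scale at low levels limit what can be seen of Grin2a and Grin2c at E14.5.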
